A study of Mus musculus with 8 samples.

Results

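The genes described here encode the proteins of the mitochondrial ribosome in mouse aortic tissue. Members were taken by symbol: every gene of the deposited table whose symbol begins with Mrpl or Mrps followed by a digit. The rule found 77 of 13839 genes and uses no measured value, but the group was chosen with earlier results of these data known. Of these, 50 encode proteins of the large subunit and 26 encode proteins of the small subunit. The remaining gene, Mrps36, carries a ribosomal symbol, but its product is now regarded as KGD4, a subunit that tethers parts of the 2-oxoglutarate dehydrogenase complex. The symbols do not give the subunit in every case, since the products of Mrps18a and Mrps30 sit in the large subunit.

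Bulk RNA-seq libraries of aortic tissue made up a control group of 5 and a group of 3 with thoracic aortic dissection (TAD), a tear within the wall of the aorta in the chest. TAD mice drank 1 g/kg/d of β-aminopropionitrile monofumarate, an inhibitor of the enzymes that cross-link collagen and elastin, from 3 weeks of age for 4 weeks. At 7 weeks they received pumps delivering 1 μg/kg per min of angiotensin II, a peptide that raises blood pressure, and tissue was taken 24 h later. The labels give no strain, genotype, vehicle or pump for the controls and no age for them, and they do not say that each library came from a separate mouse. The p-values therefore measure the spread between these libraries, part of which may be technical.

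Mitochondria keep ribosomes of their own, which make the few proteins encoded in mitochondrial DNA, all of them parts of the respiratory chain and ATP synthase. The ribosomal RNAs come from mitochondrial DNA, while every protein of the mitochondrial ribosome is encoded in the nucleus, made in the cytosol and imported. Some of these proteins have counterparts in the bacterial ribosome and others were added in mitochondria. Among the cells that aortic samples can hold, brown adipocytes and heart muscle cells are known for their many mitochondria.

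Library totals ran from 12042971 counts in TAD 1 to 15039132 in TAD 3, and the members together drew 32141 to 44877 counts per library. No member was near the detection limit, as the smallest count of any member in any library was 29, and all 77 members passed the filter on low counts. Libraries differed in the tissue they held. The summed level of 6 cardiomyocyte markers was 17040 CPM (counts scaled to each library's total, with TMM factors) in control 1 and 11210 in TAD 1, against 30.75 to 2913 in the other libraries. Actc1, a defining cardiomyocyte gene, was at 0 in TAD 3, and Myl7 was at 0 in control 5. Smooth muscle markers, which define the labelled tissue, were present in every library but ranged from 685.7 CPM in TAD 2 to 11310 in control 3. Calls of members that held or were lost without control 1 and TAD 1 are given below.

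In TAD, 18 members had lower mRNA levels than in control and 1 member, Mrpl52, had a higher level, at an adjusted p below 0.05 in edgeR's quasi-likelihood test. Lower calls made up 23.38% of the members against 11.8% of all 13701 genes tested, and the single higher call made up 1.299% against 15.2%. Calls in either direction covered 27.0% of all tested genes. The other 58 members were not called, and 25 members had an unadjusted p below 0.05. Fold changes were mostly small: the median log2 fold change was -0.14, with an interquartile range from -0.43 to 0.02, where that of all tested genes was 0.04, from -0.43 to 0.53. It was below 0 for 55 members, against 47.5% of all tested genes. Every TAD library was below every control for 19 members, or 24.68%, where the share over all tested genes was 15.0%. Every TAD library was above every control for 2 members, Mrpl52 and Mrpl33, where that share was 16.9%. With FPKM rescaled to TPM and tested with limma, 17 members were lower and 0 higher, and the shares over all tested genes were 12.28% and 7.717%. In bulk tissue, fewer cells of a type and less RNA per cell cannot be told apart.

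The number of lower members, and how far its share stood above that of all tested genes, depended on single libraries. Without control 5 it was 9, or 11.69% against 8.896% of all genes. It was 10, or 12.99%, without control 1, control 4 or TAD 3, where the all-gene shares were 10.15%, 8.906% and 12.03%, so that without TAD 3 the members' share was near the background. It was 11 (14.29% against 12%) without TAD 2 and 12 (15.58% against 8.283%) without TAD 1. It was 13 (16.88% against 10.18%) without control 2 and 18 (23.38% against 9.728%) without control 3. With control 1 and TAD 1 both left out, 6 members were lower, or 7.792% against 6.317% of all genes, and 8.019% of all genes were higher. Of these 6, Mrpl34, Mrps36, Mrpl4, Mrpl49 and Mrps16 were among the original 18, and Mrps34 was not. The other 13 lower calls and that of Mrpl52 were lost in this fit. With control 1, control 2 and TAD 2 left out, 6 members were lower, or 7.792%, below the 9.6% of all genes. The median log2 fold change of the members was between -0.21 and -0.11 over the 8 fits that left out 1 library each. Of the 19 called members, 6 were called in all 8 of those fits: Mrpl34, Mrps36, Mrpl4, Mrps35, Mrpl49 and Mrps16.

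**Figure D1:**
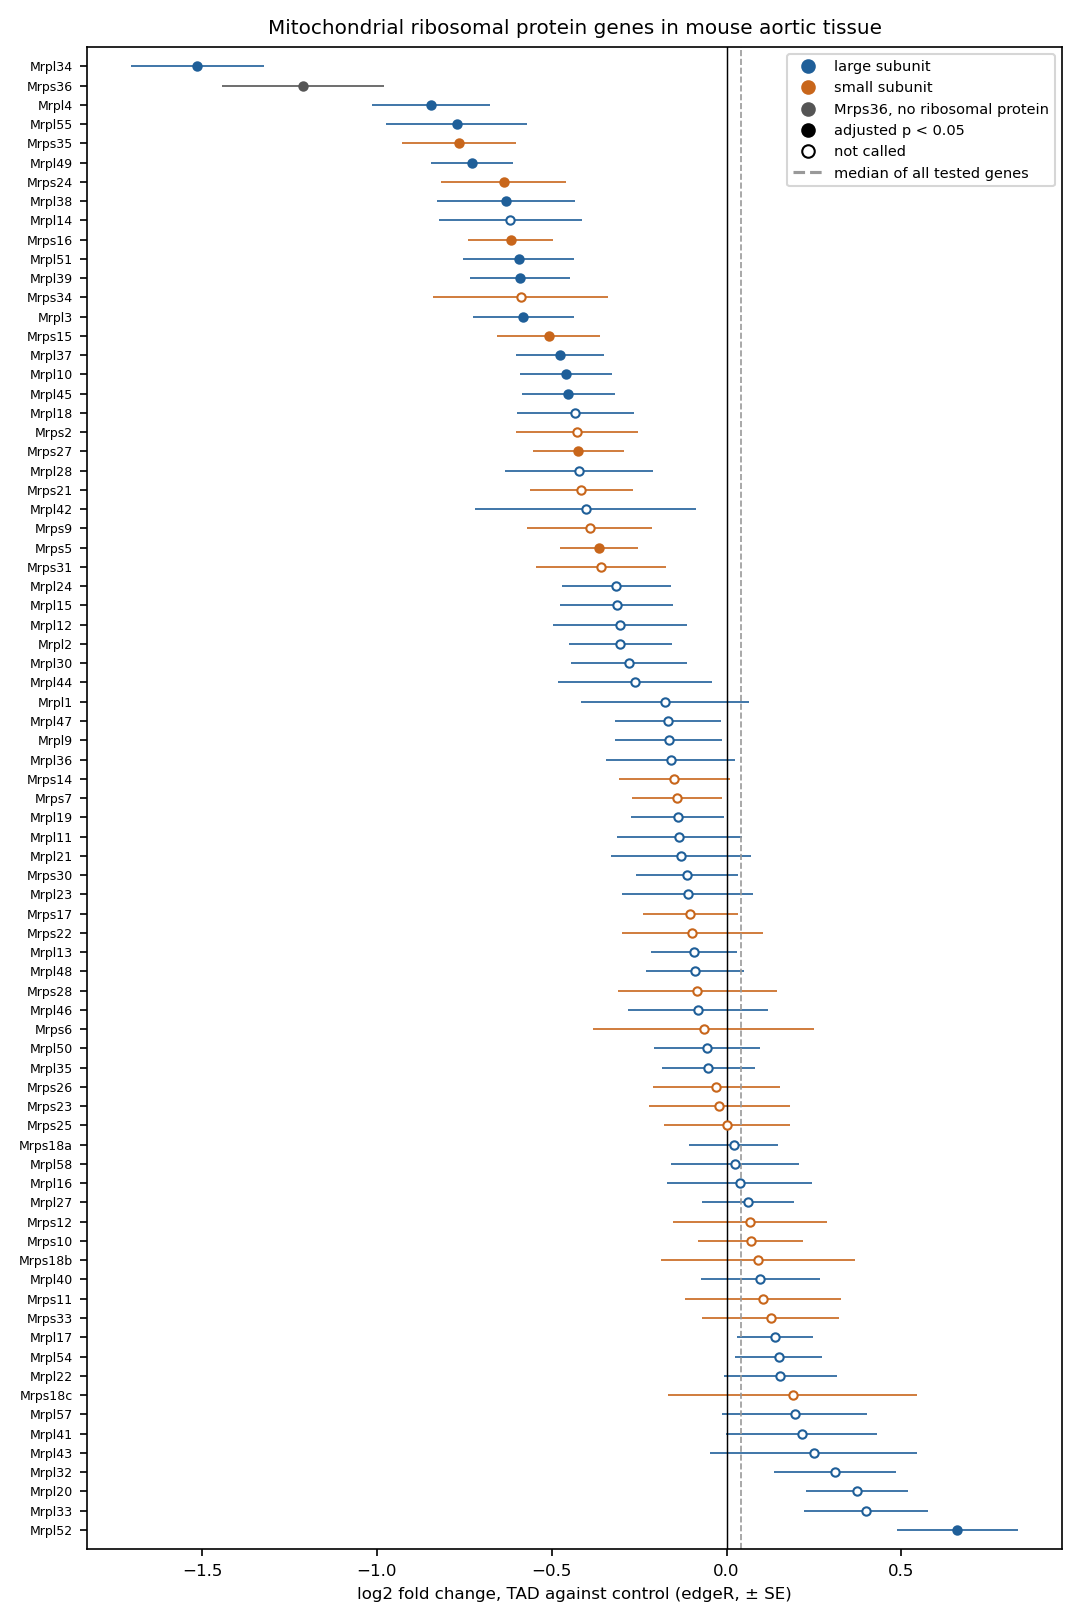
Log2 fold changes of the 77 members, TAD against control, with standard errors from edgeR, ordered by size. Filled points passed an adjusted p below 0.05, blue marks the large subunit and orange the small subunit, and the dashed line is the median of all tested genes at 0.04. Mrpl34 lies lowest at -1.51 and Mrpl52 highest at 0.66, and 55 members lie below 0.

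Among large-subunit proteins, Mrpl34 moved most. It encodes bL34m, the counterpart of the small bacterial protein L34 of the large subunit. Its level was 83.3, 71.6, 65.2, 85.6 and 90.2 CPM in controls 1 to 5 and 22.7, 25.1 and 35.3 CPM in TAD 1 to 3. The groups were far apart, with TAD 3 the highest TAD library and control 3 the lowest control. The mean fell from 79.2 ± 10.4 CPM (SD, n = 5) to 27.7 ± 6.72 CPM (SD, n = 3), a log2 fold change of -1.51 ± 0.19 (SE; edgeR adjusted p = 0.001098). Mrpl34 was also the member with the highest level per length, with 127.9 ± 17.2 FPKM (SD, n = 5) in control and 45.9 ± 11.3 FPKM (SD, n = 3) in TAD, where FPKM counts fragments for each kilobase of a gene and corrects for library size. The gene (ENSMUSG00000034880) has 2 exons and lies on chromosome 8 between 71464959 and 71465747 on the plus strand of GRCm38, and shares no exon bases with another annotated gene. Its fold change lay between -1.73 and -1.40 whichever library was left out.

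Mrpl4 encodes uL4m, whose bacterial counterpart lines the tunnel through which the new protein leaves the ribosome. Its level was 111.5, 76.8, 81.5, 87.5 and 86.1 CPM in the controls and 57.1, 40.2 and 50.8 CPM in TAD, with control 1 highest and no overlap. The fall from 88.7 ± 13.4 CPM (SD, n = 5) to 49.4 ± 8.53 CPM (SD, n = 3) gave a log2 fold change of -0.84 ± 0.17 (SE; edgeR adjusted p = 0.007475). Mrpl49, a protein added to the ribosome in mitochondria, had the tightest controls of the members described here. It stood at 34.6, 34.5, 34.3, 36.5 and 33.6 CPM in the controls and at 19.0, 20.7 and 23.1 CPM in TAD. Its log2 fold change was -0.73 ± 0.12 (SE; edgeR adjusted p = 0.00305), and the groups were well apart. Mrpl4 lies on chromosome 9 from 21002738 to 21008839, and Mrpl49 on chromosome 19 from 6053622 to 6057785.

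The other large-subunit genes called lower were less stable, and all but Mrpl55 fell less than Mrpl49. Mrpl55, the counterpart of bacterial L31, had 28.9 to 38.6 CPM in control and 13.5 to 23.1 CPM in TAD, a log2 fold change of -0.77 ± 0.20 (SE). Mrpl38, part of the central protuberance that faces the small subunit, had 54.5 to 87.7 CPM in control and 36.6 to 57.9 CPM in TAD, so that TAD 3 overlapped control 3, with a log2 fold change of -0.63 ± 0.20 (SE). It was the one lower call without separated groups. Mrpl51 had a log2 fold change of -0.59 ± 0.16 (SE). So did Mrpl39, whose protein resembles threonyl-tRNA synthetase, at -0.59 ± 0.14 (SE). Mrpl3, whose bacterial counterpart reaches towards the catalytic centre, had -0.58 ± 0.14 (SE). Adjusted p-values in edgeR were 0.02291 for Mrpl55, 0.04508 for Mrpl38, 0.02452 for Mrpl51, 0.01744 for Mrpl39 and 0.01917 for Mrpl3. The remaining lower calls of the large subunit, named after their values were seen, were Mrpl37 at -0.48 ± 0.13, Mrpl10 at -0.46 ± 0.13 and Mrpl45 at -0.45 ± 0.13 (log2 fold change ± SE). Mrpl10 holds the stalk proteins to the ribosome, and Mrpl45 lies beside the tunnel exit, where it contacts the inner membrane.

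These calls were lost in some fits that left out 1 library. Mrpl39 had an adjusted p of 0.05509 without TAD 1, and Mrpl3 had 0.05434 without TAD 3. Mrpl55 had 0.05058 to 0.05236 without control 4 or control 5, and Mrpl51 had 0.05112 to 0.06785 without TAD 2, TAD 3 or control 4. Mrpl38 had 0.07383 to 0.1535 when any library other than control 3 or TAD 3 was left out. Mrpl37 had 0.05016 to 0.06096 without TAD 2, TAD 3, control 1, control 2 or control 5. Mrpl10 had 0.05421 to 0.08434 when any library other than control 2 was left out. Mrpl45 had 0.05987 to 0.07986 when any other than control 2 or control 3 was. These p-values are from edgeR, and every fold change stayed negative in those fits.

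In the small subunit, 6 of 26 genes were called lower, none was called higher and 20 were not called. Over all tested genes, 11.8% were lower and 15.2% higher. The log2 fold change was below 0 for 19 of the 26, against 47.5% of all tested genes. Mrps35 encodes mS35, a protein with no bacterial counterpart. Its level was 60.0, 49.4, 44.0, 62.3 and 50.5 CPM in the controls and 31.2, 35.9 and 26.8 CPM in TAD. With no overlap, the log2 fold change was -0.77 ± 0.16 (SE; edgeR adjusted p = 0.009987). Without control 1 and TAD 1 it was -0.72, and the call was lost, at an adjusted p of 0.06329. Mrps16, the counterpart of bacterial S16, had 41.9, 43.0, 35.4, 41.4 and 36.5 CPM in the controls and 26.9, 24.4 and 26.3 CPM in TAD. Both groups were narrow and separate, and the log2 fold change was -0.62 ± 0.12 (SE; edgeR adjusted p = 0.007233). Mrps24 encodes uS3m, whose bacterial counterpart helps form the channel where mRNA enters. It had 47.5 to 73.8 CPM in control and 30.5 to 44.3 CPM in TAD, a log2 fold change of -0.64 ± 0.18 (SE; edgeR adjusted p = 0.02994).

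Mrps15, Mrps27 and Mrps5, named after their values were seen, made up the rest of the small-subunit calls. Mrps15 had a log2 fold change of -0.51 ± 0.15 (SE; edgeR adjusted p = 0.03334). Mrps27, a pentatricopeptide-repeat protein that binds RNA, had 23.3 to 30.5 CPM in control and 20.1, 20.3 and 20.6 CPM in TAD, a log2 fold change of -0.42 ± 0.13 (SE; edgeR adjusted p = 0.04173). Mrps5, whose bacterial counterpart also borders the mRNA entry, had -0.36 ± 0.11 (SE; edgeR adjusted p = 0.04031), the smallest fall called. Mrps24 lost its call without TAD 3, control 1, control 4 or control 5, with adjusted p-values of 0.05254 to 0.07568. Mrps15 lost it without TAD 1, TAD 2, control 1, control 2 or control 5, at 0.05818 to 0.1033. Mrps27 lost it when any library other than control 3 was left out, at 0.06741 to 0.09549, and Mrps5 when any other than TAD 2 was, at 0.05669 to 0.1132.

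Mrpl52 was the only member called higher. It encodes mL52, a large-subunit protein with no bacterial counterpart. Its level was 28.3, 27.8, 23.9, 27.7 and 23.7 CPM in the controls and 54.2, 34.9 and 35.6 CPM in TAD. All TAD libraries exceeded all controls, and TAD 1 stood well above the other two. The rise from 26.3 ± 2.29 CPM (SD, n = 5) to 41.6 ± 11.0 CPM (SD, n = 3) gave a log2 fold change of 0.66 ± 0.17 (SE; edgeR adjusted p = 0.02312). Without TAD 1 the log2 fold change was 0.41, and without TAD 1, control 3 or control 5 the adjusted p ran from 0.05271 to 0.07317. The gene (ENSMUSG00000010406) has 3 exons on chromosome 14 from 54426909 to 54429756, on the plus strand.

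Mrps36, the gene whose product belongs to 2-oxoglutarate dehydrogenase, had the second largest fall of the 77. Its level was 64.1, 42.2, 39.2, 33.8 and 48.5 CPM in the controls and 16.6, 18.8 and 23.6 CPM in TAD, without overlap. The mean went from 45.6 ± 11.7 CPM (SD, n = 5) to 19.7 ± 3.57 CPM (SD, n = 3), a log2 fold change of -1.21 ± 0.23 (SE; edgeR adjusted p = 0.006542). The annotation holds 3 pseudogenes named after Mrps36, so its count is uncertain. The other subunits of that enzyme, looked up after the value of Mrps36 was seen, were Ogdh at -1.64 ± 0.21, Dlst at -1.17 ± 0.16 and Dld at -0.79 ± 0.15 (log2 fold change ± SE). Their adjusted p-values in edgeR were 0.001163 for Ogdh, 0.001768 for Dlst and 0.006765 for Dld.

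**Figure D2:**
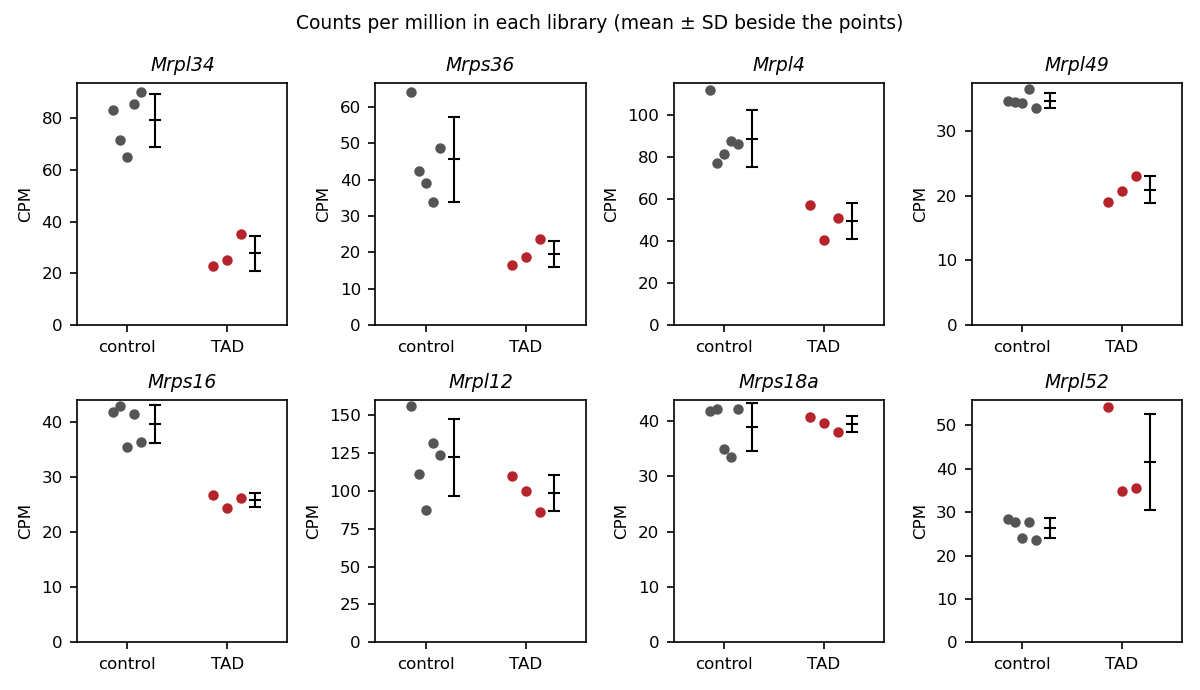
CPM of 8 members in each of the 5 control (grey) and 3 TAD (red) libraries, with mean ± SD beside the points and axes starting at 0. Mrpl34, Mrps36, Mrpl4, Mrpl49 and Mrps16 show no overlap with TAD lower, Mrpl52 shows none with TAD higher, and the groups of Mrpl12 and Mrps18a overlap.

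The stretches upstream of 4 of these genes are shown because they hold, or lack, a motif common before members' start sites. Each line gives the 250 bases before the transcription start, read 5′ to 3′ on the gene's strand, from RefSeq on GRCm38.p6. Mrpl34 was taken at chr8:71464676-71464925 (plus), Mrps36 at chr13:100744660-100744909 (minus), Mrpl52 at chr14:54426659-54426908 (plus) and Mrps27 at chr13:99344536-99344785 (plus). Capitals mark CCGGAAG, the core bound by GABP and other ETS factors, or its reverse complement CTTCCGG.
Mrpl34: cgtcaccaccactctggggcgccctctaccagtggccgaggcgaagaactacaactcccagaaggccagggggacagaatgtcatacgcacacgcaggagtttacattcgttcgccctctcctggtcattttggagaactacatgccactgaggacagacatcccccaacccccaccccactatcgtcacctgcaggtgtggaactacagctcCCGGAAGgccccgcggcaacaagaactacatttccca
Mrps36: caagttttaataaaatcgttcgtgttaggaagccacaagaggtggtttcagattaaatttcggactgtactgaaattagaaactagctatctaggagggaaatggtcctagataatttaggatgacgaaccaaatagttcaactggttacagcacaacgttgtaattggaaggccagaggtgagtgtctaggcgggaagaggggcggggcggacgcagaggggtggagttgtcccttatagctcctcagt
Mrpl52: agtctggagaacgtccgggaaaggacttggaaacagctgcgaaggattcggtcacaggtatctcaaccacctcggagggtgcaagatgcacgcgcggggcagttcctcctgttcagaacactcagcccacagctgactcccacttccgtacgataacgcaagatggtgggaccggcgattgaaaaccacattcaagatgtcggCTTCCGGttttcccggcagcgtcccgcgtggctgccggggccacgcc
Mrps27: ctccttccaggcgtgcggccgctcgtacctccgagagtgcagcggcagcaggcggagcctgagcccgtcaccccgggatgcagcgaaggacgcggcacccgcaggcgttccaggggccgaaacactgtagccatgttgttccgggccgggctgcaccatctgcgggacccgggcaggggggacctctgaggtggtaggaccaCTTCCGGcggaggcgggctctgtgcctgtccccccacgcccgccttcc

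The motif began 37 bases before the start of Mrpl34, 47 before that of Mrpl52 and 48 before that of Mrps27. For Mrpl52 it also occurred past the start, from base 3, outside the stretch shown. It was thus present upstream of the member that fell most, of the one called higher and of one of the smallest falls called, and absent before Mrps36. RefSeq entries were found for 68 members, and windows from 250 bases before to 50 after the start were searched on both strands. CCGGAAG occurred in 25 of the 68, or 36.8%, against 18.6% of 10783 tested genes with an entry and 9.93% of all 27025 genes of the table. It was not particular to the members, as 42.9% of cytosolic ribosomal protein genes and 25.4% of respiratory chain genes with an entry also held it. GCATGCGC, the motif of NRF1, was present in 11.8% of members, 15.9% of respiratory chain genes and 5.36% of cytosolic ribosomal protein genes, against 5.68% of tested genes. AAGATGGCG, a YY1 motif, was present in 11.8% of members, 11.1% of respiratory chain genes and 5.36% of cytosolic ribosomal protein genes, against 3.29% of tested genes. CCAAT, found in 38.2% of members and 42.6% of tested genes, and CACGTG, in 7.35% and 11.4%, did not exceed the tested genes. The GC box CCCGCCC was in 42.6% of members and 50.9% of tested genes, and TATAAA in 7.35% and 9.27%. Between the 15 lower members with an entry and the 52 not called, the shares were 33.3% and 36.5% for CCGGAAG, 13.3% and 11.5% for GCATGCGC, 20.0% and 9.62% for AAGATGGCG and 60.0% and 38.5% for CCCGCCC. For CCAAT they were 40.0% and 38.5%, and for both CACGTG and TATAAA 6.67% and 7.69%. These differences were not tested. A match is a description of letters and not evidence of binding.

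Of members that were not called, the 4 largest log2 fold changes were those of Mrpl14, Mrps34, Mrpl18 and Mrps2. Mrpl14, which in bacteria lies at the subunit interface, had 12.8 to 20.8 CPM in control and 9.61 to 11.3 CPM in TAD, a log2 fold change of -0.62 ± 0.20 (SE; edgeR adjusted p = 0.05385). Mrpl18 had 27.6 to 42.8 CPM and 21.9 to 27.5 CPM, a log2 fold change of -0.43 ± 0.17 (SE; edgeR adjusted p = 0.08867). Neither overlapped between groups. Mrps34 had 14.7 to 20.6 CPM in control, and in TAD 16.4, 9.02 and 8.67 CPM, so that TAD 1 lay among the controls. Its log2 fold change was -0.59 ± 0.25 (SE; edgeR adjusted p = 0.1151), and it was -0.96 at an adjusted p of 0.03857 with control 1 and TAD 1 left out. Of the exon bases of Mrps34, 36.967% also belong to a gene on the same strand and 63.421% to one on the opposite strand. How reads on shared bases were counted is not given, so its count is uncertain. Mrps2 had a log2 fold change of -0.43 ± 0.17 (SE; edgeR adjusted p = 0.1016), with overlap.

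Levels per length spread widely among members, from 1.023 to 97.15 FPKM on average over the 8 libraries, with a median of 7.654. After Mrpl34, the highest was Mrpl12 with 57.4 ± 11.7 FPKM in control and 47.6 ± 5.65 in TAD. Mrpl12 is the stalk protein that recruits translation factors, and it has also been found to bind the mitochondrial RNA polymerase. Its counts gave 156.1, 110.9, 87.3, 131.7 and 123.5 CPM in the controls and 86.2 to 109.9 CPM in TAD, which overlap. Its log2 fold change was -0.30 ± 0.19 (SE; edgeR adjusted p = 0.2671). Mrps28 averaged 29.2 FPKM and Mrpl41 24.7 FPKM over all libraries, with log2 fold changes of -0.08 ± 0.23 and 0.21 ± 0.22 (SE), neither called. The order of levels within the top of the list changed with the group: in control Mrpl34 was above Mrpl12 beyond their spread, while in TAD their FPKM ranges overlapped.

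The lowest members per length were Mrpl33 at 1.023 FPKM, Mrps18c at 1.291 FPKM and Mrps18b at 2.012 FPKM. Mrpl33, the counterpart of bacterial L33, was at 9.18 to 12.1 CPM in control and at 16.9, 12.6 and 13.4 CPM in TAD, which did not overlap. Its log2 fold change was 0.40 ± 0.18 (SE; edgeR adjusted p = 0.127). FPKM values depend on the gene length the authors used, which is not given: the length that their FPKM and counts imply was a median of 1.599 times the merged exon length of GENCODE M21 for members and 1.914 times for all genes.

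The 3 paralogs of bacterial S18 have parted in place, with Mrps18c and Mrps18b in the small subunit and Mrps18a in the large subunit. None was called. Mrps18a had 41.8, 42.1, 34.9, 33.5 and 42.2 CPM in the controls and 40.8, 39.6 and 37.9 CPM in TAD, a log2 fold change of 0.02 ± 0.13 (SE; edgeR adjusted p = 0.9235), and TAD lay inside the control range. Mrps18b had 7.19 to 15.9 CPM in control and 9.81 to 13.9 CPM in TAD, with 0.09 ± 0.28 (SE; edgeR adjusted p = 0.8392). Mrps18c had 2.17 to 5.13 CPM and 4.01 to 4.11 CPM, with 0.19 ± 0.36 (SE; edgeR adjusted p = 0.7271). Of the exon bases of Mrps18b, 30.541% also belong to an opposite-strand gene, and of those of Mrps18c, 23.234% to a same-strand gene, which leaves both uncertain.

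By subunit, 11 of 50 large-subunit genes were lower and 1 was higher, with a median log2 fold change of -0.15, and 6 of 26 small-subunit genes were lower, with a median of -0.12. By systematic name, 9 of 46 genes named for a bacterial counterpart were lower, with a median of -0.16. Of 30 named as mitochondria-specific, 8 were lower and 1 was higher, with a median of -0.09. The S18 paralogs Mrps18a and Mrps18b are among these 30. These are descriptions, and differences between the subsets were not tested. By level, 12 of the 26 members with the highest mean CPM were lower, 5 of the middle 25 and 1 of the lowest 26, with median log2 fold changes of -0.41, -0.15 and -0.03. The median count per library was 731, 451 and 256.5 in these 3 bins, so precision fell along with the level. The 10087 tested genes within the members' range of mean CPM had a median of 0.05, with 11.45% called lower and 16.26% higher. Their median SE was 0.2204 on the log2 scale, against 0.1724 for the members.

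Neighbouring genes can share reads with a member, and whether counting used the strand is not given. The 45 members with no exon base shared with another gene held 12 of the lower calls and the higher one, with a median log2 fold change of -0.15. The other 32 members held 6 lower calls, with a median of -0.14. Of these 6 calls, 3 had over 10% of exon bases shared. They were Mrps24 with 15.416% (same strand), and Mrps27 with 24.176% and Mrpl10 with 14.052% (opposite strand). Members are short, with a median of 2533 exon bases against 4485 for all tested genes. With all tested genes cut into 5 bins by exon length, the median of the shortest bin's log2 fold changes was 0.08, while the 38 members in that bin had -0.14. In the next bin these medians were 0.13 for all genes and -0.32 for 16 members. The gap was smaller in the longer bins. There the medians were, from shorter to longer, 0.08, 0.02 and -0.06 for all genes. Those of the 9, 9 and 5 members in these bins were -0.11, -0.11 and -0.09.

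**Figure D3:**
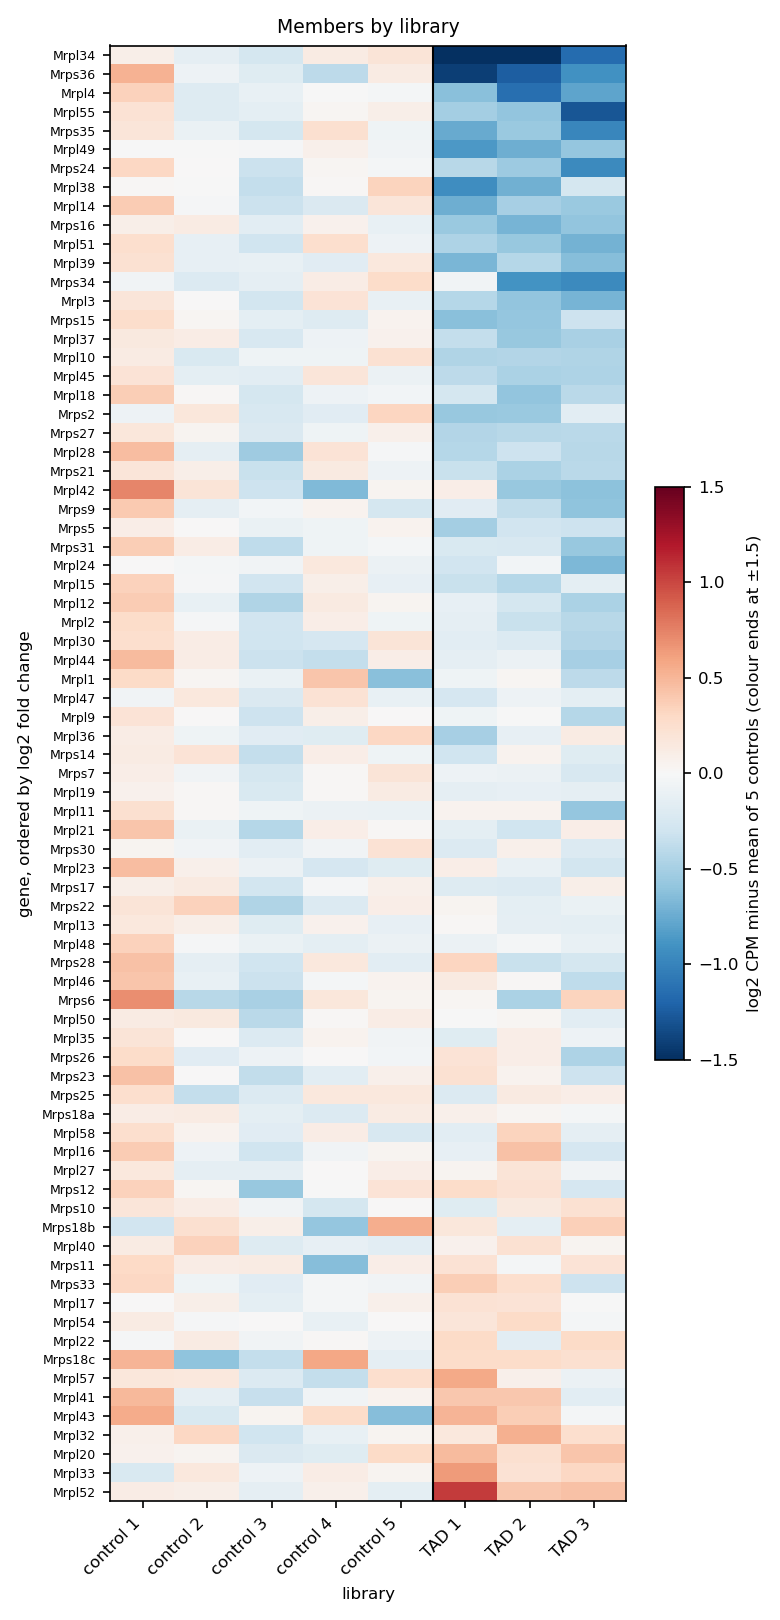
Log2 CPM of each member (rows, ordered by log2 fold change) in each library (columns), relative to the mean of the 5 controls, with colours ending at ±1.5. The top rows are blue in all 3 TAD libraries, the lower rows are pale or red there, and control 1 is redder and control 3 bluer than the other controls.

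The controls differed among themselves in the members' levels. Control 1 was the highest of the 5 controls for 47 of 77 members, and control 3 was the lowest for 45. The mean log2 CPM of the members, relative to the control mean, was 0.22, -0.00, -0.22, -0.02 and 0.02 in controls 1 to 5 and -0.15, -0.19 and -0.28 in TAD 1 to 3. The groups overlapped on this scale, since control 3 was below TAD 1 and TAD 2. Of the library total, the members made up 0.2487% to 0.3395% among controls and 0.2415% to 0.2669% among TAD libraries. Their summed level was 3058 ± 359.6 CPM (SD, n = 5) in control and 2525 ± 128.8 CPM (SD, n = 3) in TAD. Control 1 had the most cardiomyocyte mRNA, as given above, and control 3 the most smooth muscle mRNA. Their part in the members' levels was not tested.

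Markers of several cell types moved with the groups. Brown adipocyte markers, 7 of 7 in the table, summed to 3000 to 5008 CPM in control and 1026 to 2261 CPM in TAD. Of the 7, 4 were called lower and 0 higher, and 2 had a positive log2 fold change. White adipocyte markers, 6 of 6, summed to 9708 to 10040 CPM in control and 4210 to 7024 CPM in TAD. Of the 6, 3 were called lower and 0 higher, and 1 had a positive log2 fold change. Red cell markers, 5 of 5, summed to 1453 to 6763 CPM in control and 27930 to 73520 CPM in TAD, all of them called higher. Neutrophil markers, 6 of 6, summed to 7.757 to 102.8 CPM in control and 370.4 to 1093 CPM in TAD, and 5 of 5 tested were called higher. Ly6g was at 0 in controls 1 to 4, and Mmp8 at 0 in control 3. Macrophage markers, 6 of 6, summed to 185.7 to 294.1 CPM and 205.0 to 667.9 CPM, with 2 called higher. Endothelial markers, 5 of 5, summed to 1090 to 1526 CPM and 762.8 to 1053 CPM, with 3 called lower. Fibroblast markers (5 of 5; 854.8 to 1423 CPM in control and 362.8 to 1513 CPM in TAD) and neuron markers (2 of 6; 0.2984 to 85.41 CPM and 7.949 to 1223 CPM) overlapped between groups, and so did those of smooth muscle and cardiomyocytes. All 6 smooth muscle markers had a negative log2 fold change, with a median of -1.17, but none was called. Their sum was 6047 ± 3578 CPM (SD, n = 5) in control and 2277 ± 2150 CPM (SD, n = 3) in TAD. No brown or white adipocyte, red cell, macrophage or endothelial marker was at 0 in any library.

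Fitting the brown adipocyte score as a covariate left no member called, and it left 0 lower and 1 higher call among all tested genes, and the summed brown adipocyte levels given above did not overlap between the groups. The median log2 fold change of the members in that fit was -0.13. With the cardiomyocyte score as a covariate, 16 members were lower, all 16 among the original 18, and 1 was higher. The lower share was 20.78% of members against 13.37% of all genes, and 15.55% of all genes were higher. The part of fat, blood and immune cells in the members' levels was not tested beyond these fits.

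Other proteins of the mitochondrial ribosome carry symbols outside the rule, and 5 of them were tested. None was called by edgeR, 1 had an unadjusted p below 0.05, and limma on log2(FPKM + 1) without a filter called 1 higher. Ptcd3, a small-subunit protein near the mRNA entry, had 64.9 to 83.0 CPM in control and 58.0 to 64.3 CPM in TAD, without overlap, and a log2 fold change of -0.27 ± 0.11 (SE; edgeR adjusted p = 0.1059). Chchd1 had -0.23 ± 0.21 (adjusted p = 0.4434), Dap3 had -0.19 ± 0.13 (0.3261) and Aurkaip1 had -0.03 ± 0.13 (0.8977), all log2 fold change ± SE from edgeR. Gadd45gip1, a large-subunit protein, was near the lower limit of the table, with 0.8133 ± 0.326 CPM (SD, n = 5) in control and 1.63 ± 0.043 CPM (SD, n = 3) in TAD. Its log2 fold change was 0.99 ± 0.45 (SE; edgeR adjusted p = 0.1379).

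Lower calls were also found among the factors that work with the ribosome. Of 15 tested mitochondrial translation factors, 9 were lower, or 60.0% against 11.8% of all tested genes, and none was higher. Their median log2 fold change was -0.53. The lower count was 7 to 9 with any 1 library left out, where 8.283% to 12.03% of all genes were lower. It was 2 without control 1 and TAD 1, where 6.317% of all genes were lower. Tufm, the elongation factor that brings aminoacyl-tRNAs to the ribosome, had 138.1 to 193.5 CPM in control and 72.0 to 91.3 CPM in TAD, a log2 fold change of -1.05 ± 0.15 (SE; edgeR adjusted p = 0.001897). Mtrfr, which rescues stalled ribosomes, had -1.13 ± 0.26 (SE; edgeR adjusted p = 0.01318). Taco1, an activator of translation of cytochrome oxidase subunit I, had -0.82 ± 0.18 (SE; edgeR adjusted p = 0.01027). The difference between the factors and the ribosomal proteins was not tested.

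Of 26 factors that assemble the mitochondrial ribosome, 3 were lower, or 11.54%, near the 11.8% of all tested genes, and 2 were higher, or 7.692% against 15.2%. Their median log2 fold change was -0.18. Rbfa and Mterf4, which act on the small and large subunit, had -0.86 ± 0.19 and -0.68 ± 0.16, and Eral1, a chaperone of the small-subunit RNA, had -0.54 ± 0.16 (log2 fold change ± SE). The higher pair were the helicase Ddx28 at 0.84 ± 0.25 and the pseudouridine synthase Trub2 at 0.68 ± 0.21 (SE), and their groups overlapped in TAD 3. Adjusted p-values in edgeR were 0.01111 for Rbfa, 0.01754 for Mterf4, 0.03482 for Eral1, 0.03589 for Ddx28 and 0.04627 for Trub2. The lower count was 5 without TAD 2, where 12% of all genes were lower. It was 2 to 4 without any other library, where 8.283% to 12.03% of all genes were lower. The higher count was 2 without TAD 3, 1 without control 1 and 0 without any other library. Over these fits, 10.22% to 15.09% of all genes were higher. Both counts were 0 without control 1 and TAD 1, where 6.317% of all genes were lower and 8.019% higher. Eral1 was lost when any library other than TAD 2 or TAD 3 was left out, at adjusted p-values of 0.05831 to 0.08438. Ddx28 was lost when any other than control 1 or TAD 3 was, at 0.06286 to 0.1123, and Trub2 when any other than TAD 3 was, at 0.06029 to 0.1442.

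Of 19 mitochondrial aminoacyl-tRNA synthetases, which charge the tRNAs used by this ribosome, 6 were lower and 1 was higher. These were 31.58% and 5.263%, against 11.8% and 15.2% of all tested genes. The median log2 fold change was -0.10. Fars2 had -0.99 ± 0.16, Aars2 -0.98 ± 0.22 and Vars2 -0.88 ± 0.16 (log2 fold change ± SE), with edgeR adjusted p-values of 0.002773, 0.01398 and 0.005949. The higher one, Gars at 0.50 ± 0.12 (SE; edgeR adjusted p = 0.01785), also serves the cytosol, and it was lost without TAD 1 at an adjusted p of 0.06018. The lower count was 6 in each fit that left out 1 library, where 8.283% to 12.03% of all genes were lower. It was 3 without control 1 and TAD 1, where 6.317% of all genes were lower. Of 12 genes that transcribe or maintain mitochondrial DNA, 4 were lower, or 33.33% against 11.8% of all tested genes, with a median of -0.28. The exonuclease Mgme1 had -1.22 ± 0.18 and the transcription factor Tfb2m -0.62 ± 0.12, with edgeR adjusted p-values of 0.002161 and 0.006549. The topoisomerase Top1mt had -0.70 ± 0.20 (adjusted p = 0.03232), which reached 0.05343 to 0.07498 when any library other than TAD 1 or control 4 was left out. In the fits that left out 1 library, 8.283% to 12.03% of all genes were lower. The lower count of these 12 genes was then 2 to 4, at 2 without TAD 3, control 1, control 2 or control 5. It was also 2 without control 1 and TAD 1, where 6.317% of all genes were lower.

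**Figure D4:**
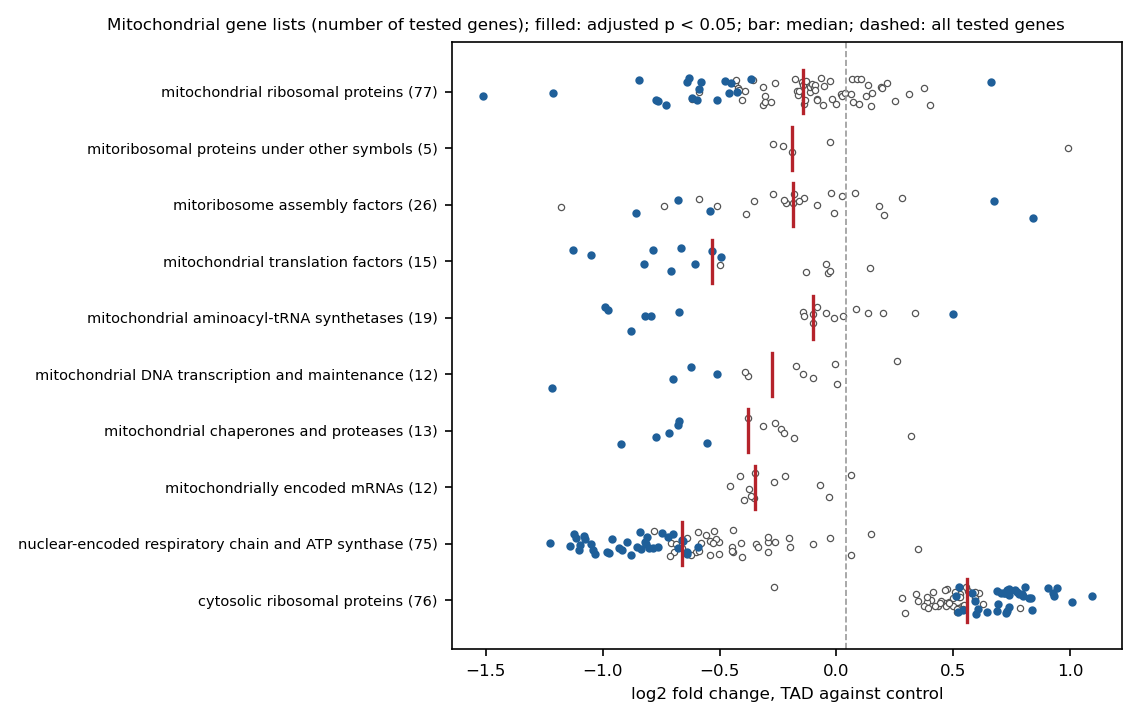
Log2 fold change (TAD against control) of every tested gene in 10 lists, filled where the edgeR adjusted p was below 0.05. Red bars are list medians and the dashed line is the median of all tested genes. The members have a median of -0.14, between the cytosolic ribosomal proteins at 0.56 and the nuclear-encoded respiratory chain at -0.66.

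Of 13 mitochondrial chaperones and proteases, 6 were lower, or 46.15% against 11.8% of all tested genes, with a median log2 fold change of -0.38. Among them, Afg3l2, a protease that in mouse matures the ribosomal protein Mrpl32, went from 208.8 ± 25.2 CPM (SD, n = 5) to 122.4 ± 11.4 CPM (SD, n = 3), a log2 fold change of -0.77 ± 0.14 (SE; edgeR adjusted p = 0.005968). The chaperones Trap1 and Dnaja3 had -0.92 ± 0.13 and -0.72 ± 0.12 (SE), with edgeR adjusted p-values of 0.001533 and 0.003643. The count was 5 or 6 with 1 library left out, where 8.283% to 12.03% of all genes were lower. It was 3 without control 1 and TAD 1, where 6.317% of all genes were lower.

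The 9 regulators of mitochondrial biogenesis divided, with 2 lower and 3 higher, or 22.22% and 33.33% against 11.8% and 15.2% of all tested genes. The coactivator Ppargc1b stood at 77.0, 45.2, 66.2, 73.5 and 66.4 CPM in the controls and at 20.9, 6.43 and 9.53 CPM in TAD, a log2 fold change of -2.42 ± 0.39 (SE; edgeR adjusted p = 0.003092). Its nuclear receptor partner Esrra had 131.4 to 226.5 CPM in control and 74.0 to 85.2 CPM in TAD, a log2 fold change of -1.14 ± 0.19 (SE; edgeR adjusted p = 0.003908). Myc, a transcription factor of ribosome and growth genes, had 6.14 to 14.8 CPM in control and 86.2, 41.6 and 72.2 CPM in TAD, a log2 fold change of 2.62 ± 0.31 (SE; edgeR adjusted p = 0.0008735). The coactivator Pprc1 had 23.4 to 30.1 CPM in control and 78.3, 30.5 and 91.8 CPM in TAD, so that TAD 2 was just above the controls, with a log2 fold change of 1.30 ± 0.30 (SE; edgeR adjusted p = 0.01458), and an adjusted p of 0.06013 without TAD 1. Gabpb1, a subunit of the GABP factor whose motif is shown above, had 15.9 to 22.2 CPM and 26.9 to 31.1 CPM, a log2 fold change of 0.63 ± 0.15 (SE; edgeR adjusted p = 0.01575). The higher count was 4 without TAD 2, 2 without TAD 1 and 2 without control 1 and TAD 1. In these fits 15.09%, 10.22% and 8.019% of all genes were higher.

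The mRNAs that the mitochondrial ribosome translates were not called. Of 12 mitochondrially encoded mRNAs tested, 0 were lower or higher in edgeR, 0 had an unadjusted p below 0.05, and DESeq2 also called 0. Their median log2 fold change was -0.35. Their part of the library total was 5.464% to 15.13% among controls and 8.103% to 9.563% among TAD libraries, so the TAD libraries lay inside the control range. The most abundant, mt-Co1, had a log2 fold change of -0.46 ± 0.36 (SE; edgeR adjusted p = 0.3741), and mt-Cytb had -0.36 ± 0.38 (SE; edgeR adjusted p = 0.5069).

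The members were set beside the 2 groups of genes closest in function. Of 75 nuclear-encoded genes of the respiratory chain and ATP synthase, 36 were lower, or 48.0% against 11.8% of all tested genes. None was higher, and the median log2 fold change was -0.66. Of 76 cytosolic ribosomal proteins, none was lower and 36 were higher, or 47.37% against 15.2% of all tested genes, with a median of 0.56. The cytosolic count was 3 without TAD 1, 11 to 13 without control 3, control 4 or control 5, 20 without control 1, 1 without control 1 and TAD 1, and 0 with FPKM rescaled to TPM. In that order, 10.22%, 11.22% to 12.05%, 12.75%, 8.019% and 7.717% of all genes were higher in these fits. The respiratory chain count was 22 to 40 with 1 library left out, where 8.283% to 12.03% of all genes were lower. It was 22 without TAD 3, where that share was 12.03%. It was 24 without control 1 and TAD 1, where 6.317% were lower. Differences between the lists were not tested.

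**Figure D5:**
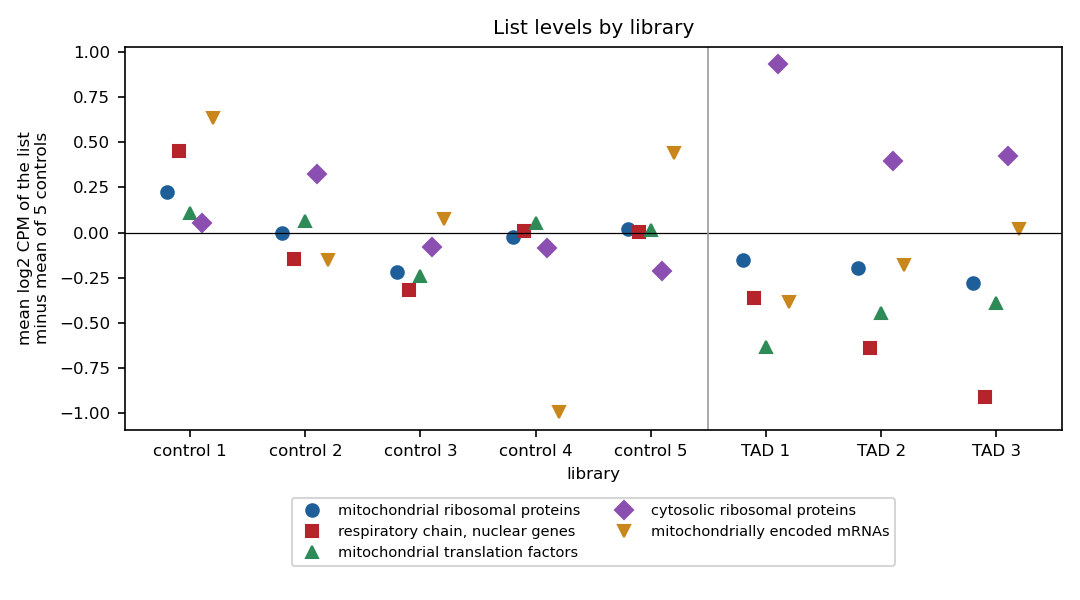
Mean log2 CPM of 5 lists in each library, relative to the mean of the 5 controls. The members (blue circles) run from -0.28 to -0.15 in TAD and from -0.22 to 0.22 in control, the translation factors lie at -0.39 or lower in all 3 TAD libraries, and the cytosolic ribosomal proteins lie at 0.40 or higher there.

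Library by library, the translation factors were at 0.11, 0.06, -0.24, 0.05 and 0.01 in controls 1 to 5 and at -0.64, -0.45 and -0.39 in TAD 1 to 3 on the same relative scale, with no overlap. The respiratory chain genes were at 0.45, -0.14, -0.32, 0.01 and 0.01 and at -0.36, -0.64 and -0.91, so that all TAD libraries lay below control 3, the lowest control. The cytosolic ribosomal proteins were at 0.05, 0.33, -0.08, -0.09 and -0.21 and at 0.93, 0.40 and 0.42, above every control. The members overlapped between groups, and so did the assembly factors, with control 3 at -0.17 and TAD 2 at -0.14, and the mitoribosomal proteins under other symbols, at -0.08 to 0.07 in control and 0.05 to 0.06 in TAD. The mean of these last proteins includes the weakly expressed Gadd45gip1, at a log2 fold change of 0.99, while the other 4 were negative. Their summed level was 237.1 ± 27.4 CPM (SD, n = 5) in control and 211.7 ± 4.06 CPM (SD, n = 3) in TAD, with overlap.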

How the data were processed

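Total RNA was extracted with TRIpure Reagent and libraries were made from 200 ng with a NEBNext Ultra kit, per the labels' protocols. Tools listed in the submitters' processing notes are HISAT2, HTSeq, fastp 0.23.1 and bcl2fastq 2.19, with human builds, while 13821 of 13839 gene identifiers occur in the mouse annotation GENCODE M21. Not given in the sources used here are the mouse build, the gene lengths and the strand setting. The deposited table has, per the file headers, both a raw read count and FPKM for every gene in every library.

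Counts were filtered with filterByExpr (13701 genes kept), scaled with TMM and tested over the whole table with edgeR 4.0.16 in R 4.3.3 (quasi-likelihood F test, no covariate, Benjamini-Hochberg adjustment, threshold 0.05). Standard errors were derived from the fold change and F. The biological coefficient of variation was 41.6%, and 2 was the prior count for log2 CPM. The fit was tested on simulated data. Groups came from the titles. No libraries agreed within sampling noise, the chi-square per gene being at least 47.56.

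The members and gene lists were chosen with earlier results of these data known. Named members were the 12 largest rises and falls among calls, the 4 highest and 3 lowest by mean FPKM, the 4 largest changes not called, the Mrps18 paralogs, Mrpl12 and Mrps36. All mitoribosomal genes under other symbols were named, and up to 3 called genes per direction from other lists, or the 2 most expressed. Alternatives used DESeq2 1.42.0 and limma 3.58.1, other scalings and filters, covariates, a replicate block and fewer libraries. List counts under these alternatives were added after the data were seen. Coordinates are those of GENCODE M21 on GRCm38. Mitochondrial ribosomal RNAs were not analysed here.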

Additional observations from a re-analysis of the deposited data

How the results depend on the processing

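The count of lower members was 14 to 20 under DESeq2, other scalings, no count filter, the cardiomyocyte covariate and limma on FPKM or TPM. The largest count, 20 under DESeq2, was 25.97% of members against 16.01% of all genes. The smallest, 14 with library totals only, was 18.18% against 10.53%. It was 0 lower and 0 higher with the brown adipocyte covariate, 6 lower and 0 higher without control 1 and TAD 1, and 6 lower without control 1, control 2 and TAD 2, where 9.6% of all genes were lower against 7.792% of members. Leaving out 1 library gave 9 to 18 lower and 0 to 1 higher. In those fits 8.283% to 12.03% of all genes were lower and 10.22% to 15.09% higher. The higher call, Mrpl52, was also lost with TPM, which gave 0. The median log2 fold change was negative under all 21 alternatives. TPM moved it to -0.29 while the median of all genes moved to -0.12. With the replicate number as a replicate block, 2 members (Mrpl34 and Mrpl4) were lower, or 2.597%, and 0 were higher. Calls over all genes were 583 lower (4.255%) and 672 higher (4.905%), so the members' lower share was below that of all genes. The labels do not say that replicate numbers pair libraries, so the main fit used no block. Same-numbered control and TAD libraries correlated in their deviations at 0.427, 0.097 and 0.544, and whether the numbers pair them is not known. Mrpl34 and Mrpl4 kept their calls in 20 of 21 alternatives, and no member in all 21. The cause of these shifts was not tested. Signs turned for Mrpl38 and for some values that had not been called. The brown adipocyte covariate gave Mrpl38 0.043, Mrps18a -0.001146 and mt-Cytb 0.25. Mrps18a was -0.1247 with TPM, -0.00217 with the block, -0.03252 with upper-quartile scaling and -0.03 to 0.05066 with 1 library left out. Mrps18b was -0.02554 with TPM and as low as -0.03626 with 1 library left out. Aurkaip1 was 0.01366 with library totals, 0.01011 with limma on log2(FPKM + 0.1), 0.009346 with a pseudocount of 1, with or without a filter, 0.01268 without control 1 and TAD 1, 0.01513 without control 1, control 2 and TAD 2, and -0.08791 to 0.05022 with 1 library left out. Without control 1, control 2 and TAD 2, Mrps28 was 0.1333 and Chchd1 0.08325, and Mrps28 ran from -0.33 to 0.04268 with 1 library left out. The 26 members with the lowest mean CPM had a median of 256.5 counts per library and a median SE of 0.1973, against 731 and 0.1525 for the 26 highest. Whether depth set the number of calls was not tested.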
